A study of Rattus norvegicus with 4 samples.

Results

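The genes described here are those of the proteasome in 4 single-cell RNA sequencing libraries of rat liver. They were taken as every symbol in the deposited feature tables that begins with Psma to Psmg followed by a number, which gave 49 of 22118 symbols. The 5 immunoproteasome members, Psmb8, Psmb9, Psmb10, Psme1 and Psme2, were set against the other 44, called the constitutive rest. That rest held 8 alpha and 8 beta subunits of the 20S core, 6 ATPases and 11 other subunits of the 19S particle, 3 genes for other activators or an inhibitor, 7 assembly chaperones, and Psmc3ip, which matches the pattern by name and is not a subunit. Psmb11, the beta subunit of thymic epithelium, had 0 UMIs (unique molecular identifiers, each standing for 1 captured RNA molecule), and Psma8, the testis alpha subunit, had 21, so 42 of the 44 could be compared.

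The proteasome degrades proteins tagged with ubiquitin. Its 20S core is a barrel of alpha and beta rings in which only Psmb5, Psmb6 and Psmb7 cut peptides, and the 19S particle binds, unfolds and feeds the substrate into it. Interferon-gamma induces Psmb8, Psmb9 and Psmb10, which replace Psmb5, Psmb6 and Psmb7 in newly built cores, as well as Psme1 and Psme2, the subunits of the PA28 cap. The resulting immunoproteasome supplies many of the peptides shown by MHC class I, and leukocytes carry it without stimulation.

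All livers came from Lewis rats, and there was 1 library for each of 4 groups. NEVLPcty was perfused ex vivo for 4 h at 37 °C with IL-10 and TGF-β in the perfusate, and NEVLP2 was perfused in the same way without them. CS was stored for 4 h at 4 °C, and naive was neither stored nor perfused. The readings of CS and NEVLPcty rest on the series description, and the digit in NEVLP2 is not explained. Per the labels, the perfusate was William's E medium with leukoreduced packed red cells of Lewis rats, hydrocortisone, insulin, papaverine, heparin, human albumin, glutamine, pyruvate, penicillin and streptomycin. The study was about liver-resident T cells. The sources used here do not say how cells were isolated or whether a library came from 1 animal.

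The libraries held 11763 barcodes in NEVLPcty, 10646 in NEVLP2, 11200 in CS and 3920 in naive, with 72271060, 65893218, 67431270 and 25609611 UMIs in that order, and 35363 cells were retained. Barcodes over the mitochondrial limit of 20% made up 1.11% of NEVLPcty, 4.28% of NEVLP2, 3.58% of CS and 13.9% of naive. Of 37400 barcode sequences, 129 occurred in more than 1 library. Cells were clustered together and clusters were named from marker genes, as "T cell-like" and so on; 35.5% of NEVLPcty, 20.3% of NEVLP2, 24.9% of CS and 15.5% of naive cells stayed unnamed. Unnamed cluster 0, with 3392 NEVLPcty cells, and unnamed cluster 6, with 1785 NEVLP2 cells, ranked highest on the endothelial markers without meeting the naming rule, and are not in the endothelial-like class of 3018 NEVLPcty and 473 NEVLP2 cells. Cluster 0 had 618 CPM of the immunoproteasome and 6730.0 CPM of the rest in NEVLPcty, against 660.1 and 5799 CPM in the named class, and cluster 6 had 828 and 5932 CPM in NEVLP2, against 742 and 4630.0 CPM in the named class. Unnamed cluster 5, with 1408 CS and 462 naive cells of low UMIs, ranked highest on the hepatocyte markers. It is not in the hepatocyte-like class of 921 CS and 1132 naive cells. Its immunoproteasome level was 1813 CPM in CS and 1093 CPM in naive, against 1197 and 781 CPM in the named class. Unnamed cluster 13, with 1008 CS cells of low UMIs, ranked highest on the endothelial markers and is not in the endothelial-like class. T, NK, B and plasmacytoid dendritic cell-like cells lay mostly in 1 cluster each that all libraries shared (cells in cluster 15, 8, 18 and 17). The other large classes did not. Kupffer cell-like cells lay in cluster 9 in the perfused libraries and mainly in cluster 10 in CS and naive. Hepatocyte-like cells lay mainly in cluster 12 in NEVLPcty, cluster 1 in NEVLP2 and cluster 3 in CS and naive, and endothelial-like cells in clusters 4 and 11 after perfusion and in clusters 2 and 14 otherwise. Monocyte- or macrophage-like cells lay mainly in cluster 19 after perfusion and in cluster 21 otherwise. Conventional dendritic cell-like cells lay in cluster 16 after perfusion, cluster 23 otherwise, and cluster 20 in all libraries. In these 5 classes a difference between a perfused library and CS or naive is therefore largely also a difference between clusters. CS and naive mostly shared clusters, as did NEVLPcty and NEVLP2 outside the hepatocyte-like and endothelial-like cells. Of the endothelial-like cells 70.9% lay in cluster 4 in NEVLPcty, whereas 66.0% lay in cluster 11 in NEVLP2.

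Levels are counts per 1000000 (CPM), the UMIs of a gene over the UMIs of all cells of a class in a library. With 1 library a group there is no replicate and no test, so differences between libraries are described and cannot be told apart from differences between animals or preparations. Intervals are exact 95% intervals and cover counting error only. A gene in a class was compared where both libraries held at least 30 cells of the class and at least 10 UMIs of the gene together, and a fold of 1.5 was taken as the mark of size. Levels are not compared between genes, because capture differs from gene to gene.

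Promoters of the members are shown first, because the immunoproteasome genes are known as interferon targets and the constitutive genes as targets of the transcription factor NRF1. RefSeq promoters on the GRCr8 build, 250 bases before to 50 after the start of the gene, were found for 43 of the 49 members. A motif of interferon regulatory factors, GAAANNGAAA, was searched on both strands and occurred in 3.92% of all 33469 promoters, in 3 of 5 immunoproteasome promoters and in 4 of 38 of the rest (Psma4, Psmb3, Psmd7 and Psmg4). The STAT motif TTCNNNGAA occurred in 8.87% of all promoters, in 1 of 5 and in 3 of 38 (Psmc6, Psmd3 and Psmd7). The antioxidant response element core TGACNNNGC, the kind of site that NRF1 and NRF2 bind, occurred in 12.1% of all promoters, in 0 of 5 and in 7 of 38 (Psmb2, Psmb5, Psmb6, Psmd1, Psmd3, Psmd9 and Psme4). The 3 immunoproteasome promoters with the first motif and, for contrast, that of Psmb5, the constitutive counterpart of Psmb8, follow 5′ to 3′ on the strand of the gene, with the motifs in capitals. All lie on the minus strand: Psmb8 at chr20:4656982-4657281, Psmb10 at chr19:50743243-50743542, Psme2 at chr15:33052702-33053001 and Psmb5 at chr15:32047330-32047629.
Psmb8: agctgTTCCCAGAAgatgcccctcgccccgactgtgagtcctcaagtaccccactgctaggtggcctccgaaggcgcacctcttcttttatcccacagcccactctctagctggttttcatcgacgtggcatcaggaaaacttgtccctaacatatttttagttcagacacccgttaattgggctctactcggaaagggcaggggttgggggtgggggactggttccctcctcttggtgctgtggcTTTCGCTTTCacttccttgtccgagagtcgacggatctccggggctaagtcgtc
Psmb10: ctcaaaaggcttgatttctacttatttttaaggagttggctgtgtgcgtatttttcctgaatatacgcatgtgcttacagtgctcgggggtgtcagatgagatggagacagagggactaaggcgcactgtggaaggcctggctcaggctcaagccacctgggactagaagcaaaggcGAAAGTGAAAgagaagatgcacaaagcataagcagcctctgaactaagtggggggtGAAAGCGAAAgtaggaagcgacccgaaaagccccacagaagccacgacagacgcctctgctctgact
Psme2: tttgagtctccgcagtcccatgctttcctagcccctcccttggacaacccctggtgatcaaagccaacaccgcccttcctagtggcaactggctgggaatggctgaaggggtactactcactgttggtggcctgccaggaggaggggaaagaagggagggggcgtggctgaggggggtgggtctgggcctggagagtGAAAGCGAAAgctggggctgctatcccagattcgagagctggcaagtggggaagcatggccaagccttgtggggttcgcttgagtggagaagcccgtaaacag
Psmb5: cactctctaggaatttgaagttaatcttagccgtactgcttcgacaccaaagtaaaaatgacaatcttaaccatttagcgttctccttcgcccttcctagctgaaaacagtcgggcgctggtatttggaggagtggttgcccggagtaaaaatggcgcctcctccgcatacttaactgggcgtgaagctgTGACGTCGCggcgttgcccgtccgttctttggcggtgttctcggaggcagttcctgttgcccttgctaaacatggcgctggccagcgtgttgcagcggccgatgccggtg
In Psmb8 the STAT motif begins 245 bases before the start, and the interferon motif, read on the opposite strand, spans the start. Psmb10 holds 2 interferon motifs, which begin 73 and 17 bases before the start, and Psme2 holds 1, which begins 53 bases before it. The antioxidant motif of Psmb5 begins 60 bases before its start. A motif is a match of letters, not a site shown to be bound. In the RefSeq annotation Psmb8 and Psmb9 alternate with Tap2 and Tap1, the peptide transporter genes, on chromosome 20, and Psme1 and Psme2 lie on either side of Emc9 on chromosome 15.

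The share of Psmb8, Psmb9 and Psmb10 among the UMIs of the 6 catalytic genes (these and Psmb5, Psmb6 and Psmb7) differed by cell class and by library. It is a ratio within the same cells, so scaling to depth does not touch it, and it is read only between classes and libraries. In all retained cells it was 49.0% in NEVLPcty, 58.5% in NEVLP2, 70.1% in CS and 67.6% in naive, which also reflects which cells were recovered. Averaged over the 9 classes with enough cells in every library, it was 55.9% in NEVLPcty, 59.4% in NEVLP2, 70.2% in CS and 65.5% in naive. The order of the perfused libraries depends on the clustering: with each library clustered alone the mean was 61.9% in NEVLPcty, where 6 classes were then named and no hepatocyte-like one, and 59.4% in NEVLP2.

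In the naive liver the order of classes ran from neutrophil-like cells at 89.8% (interval 86.3 to 92.7) through conventional dendritic cell-like cells at 76.2% (75.3 to 77.1) and plasmacytoid dendritic cell-like cells at 73.8% (72.0 to 75.5). It went on through NK cell-like at 70.1%, B cell-like at 69.4%, Kupffer cell-like at 68.5%, monocyte- or macrophage-like at 66.9% and T cell-like cells at 65.8%, and ended with endothelial-like cells at 56.1% (48.5 to 63.5) and hepatocyte-like cells at 43.1% (41.2 to 45). The intervals of neighbours from NK to T cell-like cells overlapped, and those of hepatocyte-like cells overlapped none. In the perfused libraries stellate- or fibroblast-like cells stood at 40.3% in NEVLPcty and 49.5% in NEVLP2. Leukocyte markers in them came to 6.75% of the leukocyte level in NEVLPcty and 19.2% in NEVLP2, and hepatocyte markers to 4.76% and 11.6% of the hepatocyte level, and the part of these in the shares was not tested. The 32 cholangiocyte-like cells of NEVLP2 stood at 20.5% (16.9 to 24.4), below every other class.

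**Figure D1:**
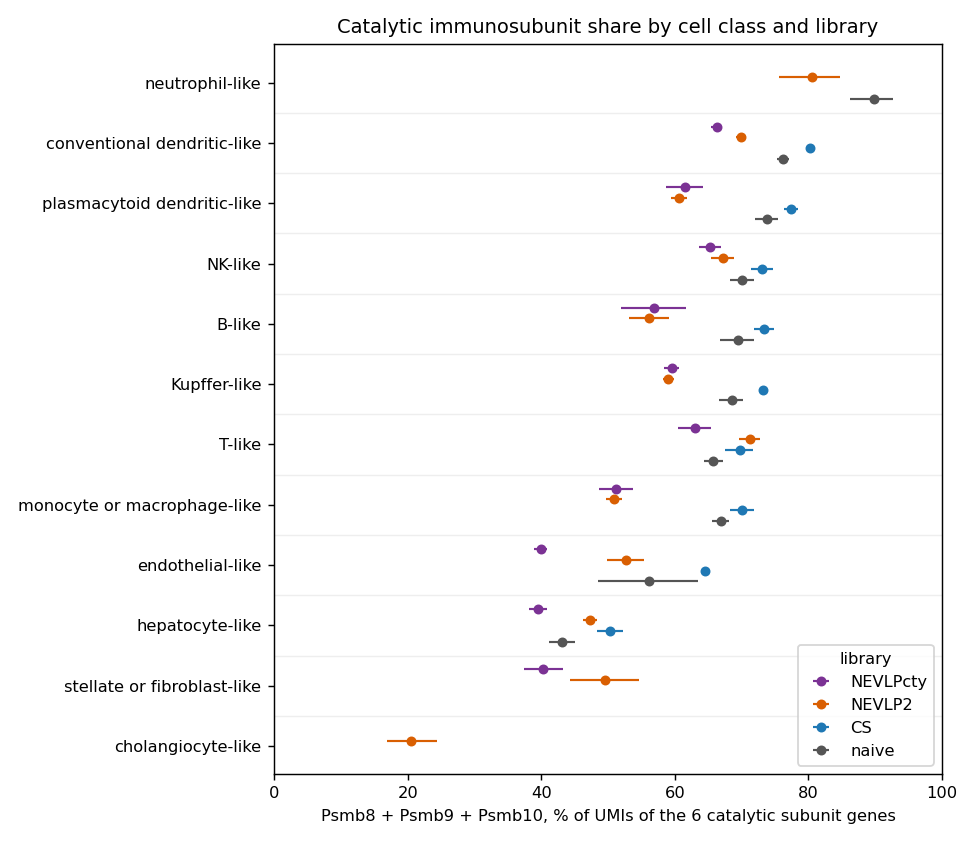
Share of Psmb8, Psmb9 and Psmb10 among the UMIs of the 6 catalytic proteasome genes (horizontal axis, percent) by cell class (vertical axis) and library (colour); bars are exact 95% counting intervals. Kupffer cell-like cells stand near 59% in NEVLPcty (59.6%) and NEVLP2 (59.0%), left of CS (73.2%) and naive (68.5%), whereas T cell-like cells of NEVLP2 (71.2%) stand right of NEVLPcty (63.0%).

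The 9 classes fell into different patterns over the libraries. In Kupffer cell-like cells the share was 59.6% in NEVLPcty, 59.0% in NEVLP2, 73.2% in CS and 68.5% in naive, so both perfused libraries lay below both others. Monocyte- or macrophage-like cells (51.2%, 50.9%, 70.1% and 66.9% in the same order), B cell-like cells (56.9%, 56.2%, 73.4% and 69.4%) and plasmacytoid dendritic cell-like cells (61.5%, 60.6%, 77.4% and 73.8%) had the same order, with no gap between the perfused libraries beyond their intervals. T cell-like cells differed from these: the share was 63.0% (60.5 to 65.5) in NEVLPcty, 71.2% (69.6 to 72.8) in NEVLP2, 69.7% (67.6 to 71.7) in CS and 65.8% (64.4 to 67.2) in naive. NEVLP2 and CS overlapped there, as did NEVLPcty and naive. NEVLPcty also lay below NEVLP2 in conventional dendritic cell-like (66.3% against 69.9%), endothelial-like (39.9% against 52.7%) and hepatocyte-like cells (39.5% against 47.3%), but the endothelial-like order turned round with each library clustered alone, to 56.8% in NEVLPcty and 44.8% in NEVLP2. NK cell-like cells stood at 65.3% in NEVLPcty, 67.2% in NEVLP2, 73.1% in CS and 70.1% in naive. CS lay above naive in each of the 9 classes.

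The 3 exchanges did not move alike. In T cell-like cells the share of Psmb8 in the pair with Psmb5 was 60.4% in NEVLPcty, 65.2% in NEVLP2, 61.5% in CS and 56.8% in naive, and that of Psmb9 in the pair with Psmb6 was 68.1%, 78.1%, 73.6% and 68.5%. The share of Psmb10 in the pair with Psmb7 was 61.4% in NEVLPcty, 74.4% in NEVLP2, 77.6% in CS and 76.8% in naive. NEVLP2 thus stood highest for the first and second exchange and not for that of Psmb10. The intervals of NEVLP2 and CS overlapped for all 3 exchanges, so the order of those libraries is not resolved. NEVLP2 lay above naive beyond the intervals for Psmb8 and Psmb9, and for Psmb10 NEVLPcty lay below every other library beyond them. In hepatocyte-like cells all 3 shares were highest in CS (53.7%, 49.7% and 40.6%) and lowest in NEVLPcty (44.6%, 33.8% and 29.6%), in the order Psmb8, Psmb9 and Psmb10. The intervals of CS and NEVLP2 overlapped there for Psmb8 and Psmb10, and those of NEVLPcty and naive for all 3.

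The comparison of NEVLPcty with NEVLP2 asks what IL-10 and TGF-β in the perfusate added to perfusion. Summed immunoproteasome levels were lower in NEVLPcty in 8 of 10 classes, and the gap was widest in T cell-like cells, at 2234 CPM in 109 NEVLPcty cells against 3657 CPM in 171 NEVLP2 cells, 1.64-fold lower (interval 1.56 to 1.72). NK cell-like cells had 2133 CPM in NEVLPcty and 2987 CPM in NEVLP2, 1.4-fold lower (1.35 to 1.46). Within cluster 8, with 511 NEVLPcty and 443 NEVLP2 cells of that class, the gap was narrower, 1.3-fold lower (1.25 to 1.35). Over the 10 classes the log2 ratio averaged -0.25 for the immunoproteasome and -0.00 for the constitutive rest, beside a median of 0.10 over the class means of all genes. The class ratios of the immunoproteasome ranged from -0.71 in T cell-like to 0.08 in stellate- or fibroblast-like cells. In T and NK cell-like cells the constitutive rest stood at -0.24 and -0.14. The rest was above 0 in only 4 of the 10 classes. In B and Kupffer cell-like cells it stood at -0.27 and -0.09, close to the -0.28 and -0.12 of the immunoproteasome. In endothelial-like cells the immunoproteasome was 1.12-fold lower in the class. Within clusters 4 and 11 of that class the folds were 0.97 (0.892 to 1.06) and 1.05 (0.979 to 1.12).

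Among the member-in-class values of the immunoproteasome, 10 of 50 were at least 1.5-fold lower in NEVLPcty (20%) and 2 were higher (4.0%), where 15.7% of all gene-in-class values were lower and 23.0% higher. Of the constitutive rest 26 of 416 were lower (6.25%) and 25 higher (6.01%), fewer than among all genes, many of which had fewer UMIs. The immunoproteasome's share of lower values was close to the background, and its share of higher values was below it.

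Psme2, a PA28 subunit, carried much of this difference. Its level in T cell-like cells was 451 CPM in NEVLPcty, 1055 CPM in NEVLP2, 441 CPM in CS and 324 CPM in naive, so NEVLP2 stood alone and NEVLPcty was at the level of CS. NEVLPcty was 2.34-fold lower than NEVLP2 (interval 2.1 to 2.61). In NK cell-like cells Psme2 had 556 CPM in NEVLPcty, 1084 CPM in NEVLP2, 507 CPM in CS and 452 CPM in naive, the same order, and NEVLPcty was 1.95-fold lower than NEVLP2 (1.82 to 2.09). The log2 ratio of Psme2 between NEVLPcty and NEVLP2 was negative in 10 of 10 classes, from -1.23 in T cell-like to -0.01 in monocyte- or macrophage-like cells, and averaged -0.52. Psme1, the partner subunit of PA28, averaged -0.06, and in T cell-like cells it had 840 CPM in NEVLPcty, 1043 CPM in NEVLP2, 1086 CPM in CS and 946 CPM in naive, a much narrower spread.

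Psmb9, which replaces Psmb6 in the core, was also lower in NEVLPcty than in NEVLP2 in 10 of 10 classes, from -0.87 in T cell-like to -0.21 in Kupffer cell-like cells, with a mean log2 ratio of -0.56. In T cell-like cells its level was 323 CPM in NEVLPcty, 592 CPM in NEVLP2, 413 CPM in CS and 298 CPM in naive, 1.83-fold lower in NEVLPcty than in NEVLP2 (interval 1.61 to 2.09). Psmb8, which replaces Psmb5, averaged -0.05 because its classes went both ways: T cell-like cells had 477 CPM in NEVLPcty against 692 CPM in NEVLP2, whereas monocyte- or macrophage-like cells had 197 CPM in NEVLPcty against 116 CPM in NEVLP2, 1.69-fold higher (1.48 to 1.93). Psmb10, which replaces Psmb7, averaged -0.27 and was at its lowest ratio in T cell-like cells, with 144 CPM in NEVLPcty, 276 CPM in NEVLP2, 340.2 CPM in CS and 269 CPM in naive. T cell-like cells of NEVLPcty were therefore the lowest of the 4 libraries for Psmb10, and lay between NEVLP2 and naive for Psmb8 and Psmb9.

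T cell-like cells lay in 1 cluster in all 4 libraries, so their contrasts are not between clusters. The mix of T cells within that cluster was not compared between libraries. Summed hepatocyte markers, a measure of RNA from other cells, came to 305 CPM in their NEVLPcty cells, 853 CPM in NEVLP2, 357 CPM in CS and 532 CPM in naive, with 2 of 9 markers at 0 in NEVLPcty and none at 0 elsewhere. The part of that RNA in the ratios was not tested. Hepatocyte-like cells themselves had 1208 CPM of the immunoproteasome in NEVLPcty and 1413 CPM in NEVLP2, less than the T cell-like cells of the same libraries.

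**Figure D2:**
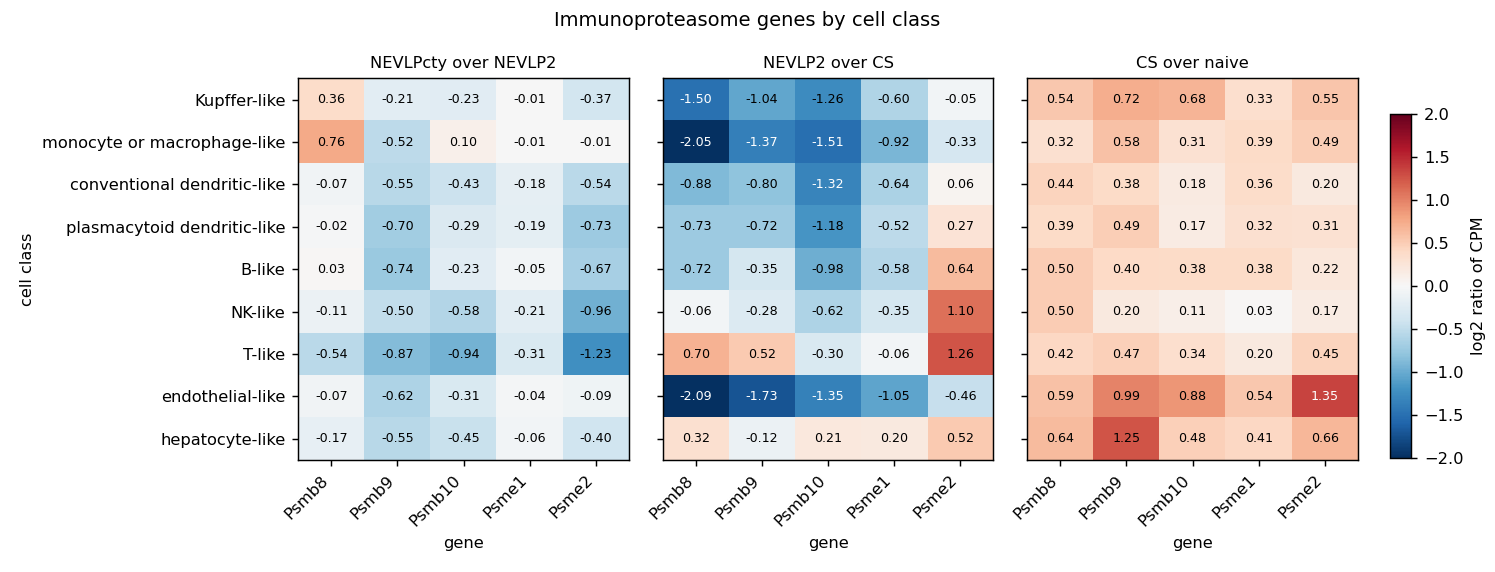
Log2 ratio of each immunoproteasome gene (columns) in each class (one line of cells per class) for NEVLPcty over NEVLP2, NEVLP2 over CS and CS over naive, on 1 colour scale. Psme2 in T cell-like cells is -1.23 in the first and 1.26 in the second comparison, Psmb8 in endothelial-like cells is -2.09 in the second, and every value of the third comparison is above 0.

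The comparison of NEVLP2 with CS asks how warm perfusion differed from cold storage of equal length. T cell-like cells went a different way from most classes. Their summed immunoproteasome level was 3657 CPM in NEVLP2 and 2705 CPM in CS, 1.35-fold higher (interval 1.29 to 1.41). Their constitutive rest was higher by nearly as much, at 7630 CPM in NEVLP2 and 5902 CPM in CS, 1.29-fold (1.25 to 1.33). For the immunoproteasome NK cell-like cells were close to CS, at 2987 CPM in NEVLP2 and 2865 CPM in CS, and 6 of the 9 classes were lower. Kupffer cell-like cells had 1792 CPM in NEVLP2 and 3004 CPM in CS, 1.68-fold lower (1.65 to 1.7). Monocyte- or macrophage-like cells had 1280 CPM in NEVLP2 and 2675 CPM in CS, 2.09-fold lower (2.01 to 2.17), and endothelial-like cells 742 CPM in NEVLP2 and 1760 CPM in CS, 2.37-fold lower (2.26 to 2.49). The mean log2 ratio over 9 classes was -0.42 for the immunoproteasome and 0.10 for the constitutive rest, beside a median of -0.34 over all genes.

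The medians of all genes were well below 0 in the same 3 classes, at -0.53 in Kupffer cell-like, -0.53 in monocyte- or macrophage-like and -0.69 in endothelial-like cells. Relative to them the immunoproteasome stood at -0.21, -0.53 and -0.55, whereas the constitutive rest, at -0.01, -0.12 and -0.41 before this step, stood above the median. In hepatocyte-like cells the ratio of 0.24 became -0.14 relative to a median of 0.38, and within cluster 3, which held 221 NEVLP2 and 916 CS cells, the immunoproteasome was 1.39-fold lower in NEVLP2, so no direction is given for them. In T cell-like cells the median was -0.09, so the ratio of 0.44 became 0.52. Of the member-in-class values 22 of 45 immunoproteasome values were at least 1.5-fold lower in NEVLP2 (48.9%), where 38.8% of all gene-in-class values were, and 62 of 376 of the rest (16.5%). The constitutive rest thus held fewer lower values than genes in general.

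The 3 catalytic members and Psme2 parted in this comparison. Psmb8 in monocyte- or macrophage-like cells had 197 CPM in NEVLPcty, 116 CPM in NEVLP2, 482 CPM in CS and 386 CPM in naive, and was 4.14-fold lower in NEVLP2 than in CS (interval 3.74 to 4.59). In endothelial-like cells Psmb8 had 66.8 CPM in NEVLPcty, 70.3 CPM in NEVLP2, 298 CPM in CS and 198 CPM in the 34 naive cells, 4.25-fold lower in NEVLP2 than in CS (3.65 to 4.97). In Kupffer cell-like cells Psmb8 had 211 CPM in NEVLPcty, 164 CPM in NEVLP2, 463 CPM in CS and 319 CPM in naive. In each of these classes both perfused libraries lay below both others, and those classes came mostly from different clusters in the perfused and the other libraries. In T cell-like cells, by contrast, Psmb8 was 1.63-fold higher in NEVLP2 than in CS (1.46 to 1.81), at 692 CPM against 425 CPM.

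Psmb10 was at least 1.5-fold lower in NEVLP2 than in CS in 7 of 9 classes, with a mean log2 ratio of -0.92, and in Kupffer cell-like cells it had 175 CPM in NEVLPcty, 205 CPM in NEVLP2, 492 CPM in CS and 307 CPM in naive. Psmb9 averaged -0.65 and Psme1 averaged -0.50. The median over all genes was -0.34 in this comparison. Of all gene-in-class values 38.8% were at least 1.5-fold lower and 20.3% higher. Psme2 went the other way, with a mean log2 ratio of 0.33 and 3 classes at least 1.5-fold higher in NEVLP2. Those included T cell-like cells, 2.39-fold higher (interval 2.16 to 2.65), and NK cell-like cells, 2.14-fold higher. In Kupffer cell-like cells Psme2 hardly differed, at 540.0 CPM in NEVLP2 and 559 CPM in CS.

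**Figure D3:**
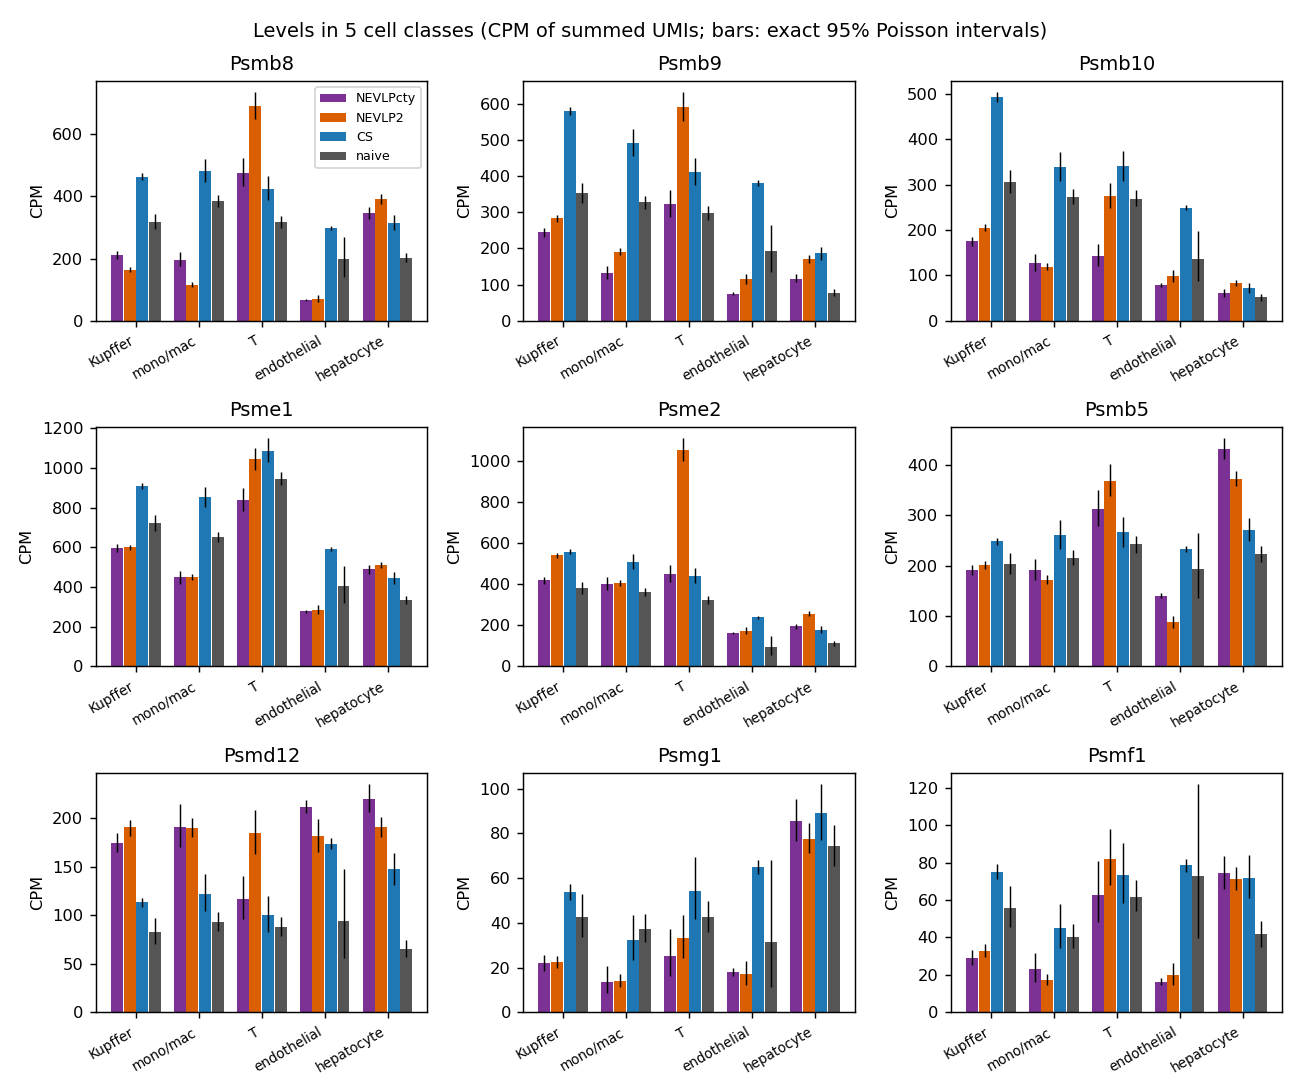
Levels in CPM (vertical axes) of 9 proteasome genes in 5 cell classes (horizontal axis), as bars for NEVLPcty, NEVLP2, CS and naive from left to right, with exact 95% counting intervals. Psme2 in T cell-like cells is 1055 CPM in NEVLP2 and between 324 and 451 CPM in the other libraries, and Psmg1 in Kupffer cell-like cells is 21.9 CPM in NEVLPcty and 22.3 CPM in NEVLP2, below CS (53.6 CPM) and naive (42.6 CPM).

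Against the naive library, which is the liver with neither storage nor perfusion, the immunoproteasome of NEVLP2 went different ways by class. Summed levels were higher in hepatocyte-like cells, at 1413 CPM in NEVLP2 against 781 CPM in naive, 1.81-fold (interval 1.73 to 1.89), and in T cell-like cells, at 3657 CPM against 2156 CPM, 1.7-fold (1.64 to 1.76). They were lower in monocyte- or macrophage-like cells, at 1280 CPM in NEVLP2 against 2004 CPM in naive, 1.56-fold (1.52 to 1.61), and in neutrophil-like cells, at 730 CPM in 211 NEVLP2 cells against 2041 CPM in 76 naive cells, 2.8-fold (2.43 to 3.21). The medians of all genes were 0.58 in hepatocyte-like, 0.08 in T cell-like, -0.58 in monocyte- or macrophage-like and -0.63 in neutrophil-like cells, beside immunoproteasome ratios of 0.86, 0.76, -0.65 and -1.48, so the monocyte- or macrophage-like value was close to that of genes in general. The constitutive rest of hepatocyte-like cells was 1.82-fold higher, as much as the immunoproteasome, and that of T cell-like cells was 1.46-fold higher (1.43 to 1.5). The mean over 10 classes, -0.14, became 0.07 relative to the median of all genes, so its direction depends on the scaling. It was 0.45 with called doublets kept, where an erythroid-like class entered at 5.55. The 1.81-fold difference of hepatocyte-like cells lay between clusters: within cluster 3 it was 1.1-fold (0.991 to 1.22).

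Of the immunoproteasome values 12 of 50 were at least 1.5-fold higher in NEVLP2 than in naive (24.0%) and 13 were lower (26.0%), where 25.4% of all gene-in-class values were higher and 35.9% lower. Psme2 stood out as higher in 10 of 10 classes, from 0.15 in monocyte- or macrophage-like to 1.70 in T cell-like cells, with a mean log2 ratio of 0.80. In neutrophil-like cells it went against the sum, with 199 CPM in NEVLP2 and 127 CPM in naive, while Psmb8 there had 107 CPM in NEVLP2 and 643 CPM in naive, 6.01-fold lower (interval 4.41 to 8.27). The neutrophil markers themselves summed to 13250 CPM in these NEVLP2 cells and 94720 CPM in the naive ones, and the part of this in the difference was not tested.

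In CS against naive, the comparison for cold storage alone, the immunoproteasome was higher in all 9 classes. All 45 member-in-class values had a log2 ratio above 0, although NK cell-like cells turned to -0.03 relative to the median of all genes. The constitutive rest was above 0 in all 9 classes as well. Medians of all genes ran from -0.10 in endothelial-like to 0.20 in T cell-like cells, and the share of all gene-in-class values above 0 was not taken. The mean was 0.43 for the immunoproteasome and 0.21 for the constitutive rest, beside 0.09 over all genes. Kupffer cell-like cells had 3004 CPM in CS and 2080 CPM in naive, 1.44-fold higher (interval 1.4 to 1.49), and hepatocyte-like cells 1197 CPM in CS and 781 CPM in naive, 1.53-fold (1.45 to 1.62). Within single clusters the folds were 1.44 in cluster 10 (Kupffer cell-like) and 1.53 in cluster 3 (hepatocyte-like), so they were as large there as in the whole class. In unnamed cluster 5, which led on the hepatocyte markers, the fold was 1.66 (1.54 to 1.79), at 1813 CPM in CS and 1093 CPM in naive. Endothelial-like cells had 1760 CPM in 4117 CS cells and 1025 CPM in 34 naive cells, 1.72-fold (1.49 to 1.99). Relative to the median of all genes the mean for the immunoproteasome was 0.34.

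At the fold of 1.5, 9 of 45 immunoproteasome values were higher in CS than in naive (20%) and 0 were lower. Of all gene-in-class values 18.0% were higher and 12.6% lower, so the share of higher values was close to the background. The differences were small in size, and their direction was also that of the constitutive rest. By class mean, 1 of 5 immunoproteasome genes (Psmb9) and 0 of 42 of the rest were that much higher, where 12.8% of all genes were higher and 11.1% lower. Psmb9 had the largest mean of the 5, 0.61, and in hepatocyte-like cells its level was 117 CPM in NEVLPcty, 171 CPM in NEVLP2, 186 CPM in CS and 78 CPM in naive, the naive library being the lowest. The 4 comparisons share libraries, NEVLP2 being in 3 of them and naive in several, so their values are set side by side and not counted as separate evidence.

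Among the constitutive catalytic subunits, the mean log2 ratios lay near 0. Psmb5 averaged 0.03 for NEVLPcty over NEVLP2, -0.01 for NEVLP2 over CS, 0.03 for NEVLP2 over naive and 0.17 for CS over naive, and Psmb6 and Psmb7 lay between -0.12 and 0.22 in the same comparisons. Single classes departed from this: Psmb5 in hepatocyte-like cells had 432 CPM in NEVLPcty, 372 CPM in NEVLP2, 271 CPM in CS and 223 CPM in naive, and in endothelial-like cells 141 CPM in NEVLPcty, 88.1 CPM in NEVLP2, 233 CPM in CS and 193 CPM in naive. The first class was highest after perfusion and the second highest in CS.

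Of the other 20S core genes, Psmb2 and Psma5 had a class mean at least 1.5-fold higher in NEVLP2 than in naive and none in NEVLP2 than in CS. Psmb2, a beta subunit without catalytic activity, averaged -0.33 for NEVLPcty over NEVLP2, 0.47 for NEVLP2 over CS and 0.80 for NEVLP2 over naive. In T cell-like cells Psmb2 had 289 CPM in NEVLPcty, 480.2 CPM in NEVLP2, 244 CPM in CS and 174 CPM in naive, the same order of libraries as Psme2. The alpha subunit genes Psma5 and Psma2 averaged 0.67 and 0.58 for NEVLP2 over naive, Psma1 0.52, Psma6 0.31, Psma4 -0.05 and Psma7 -0.26. Psma7 in monocyte- or macrophage-like cells had 269 CPM in NEVLPcty, 182 CPM in NEVLP2, 430 CPM in CS and 398 CPM in naive, below both other libraries after perfusion as Psmb8 was. Psmb1, the beta gene with the most UMIs, averaged 0.15 for NEVLP2 over naive, Psmb3 -0.09 and Psmb4 0.20. Psma3l, a Psma3-like gene chosen after its values were seen, averaged 0.37, and reads of near-identical copies cannot be told apart there.

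Among the genes of the 19S particle, Psmd12 and Psmd11 were higher in NEVLP2 than in CS and in naive in every class compared. Of all gene-in-class values 20.3% were at least 1.5-fold higher in NEVLP2 than in CS and 25.4% than in naive. Psmd12, a lid subunit, was at least 1.5-fold higher in NEVLP2 than in naive in 10 of 10 classes, with a mean fold of 2.07, and higher than in CS in 9 of 9 classes with a mean log2 ratio of 0.58. In Kupffer cell-like cells Psmd12 had 175 CPM in NEVLPcty, 190.3 CPM in NEVLP2, 113 CPM in CS and 83.1 CPM in naive, and in hepatocyte-like cells 220.0 CPM in NEVLPcty, 191 CPM in NEVLP2, 147 CPM in CS and 65.4 CPM in naive. Both perfused libraries lay above both others in these classes, whose perfused and other cells lay mostly in different clusters. Within cluster 9 (Kupffer cell-like, 59 naive cells) the constitutive rest of NEVLP2 over naive was 0.982-fold (0.89 to 1.09), against 1.21-fold in the class. Within cluster 3 (hepatocyte-like) it was 1.15-fold (1.1 to 1.21), against 1.82-fold, and Psmd12 alone was not read within clusters. Psmd11, another lid subunit, was higher in NEVLP2 than in CS in 9 of 9 classes, 5 of them at least 1.5-fold, with a mean log2 ratio of 0.91, and than in naive in 10 of 10, 9 of them at least 1.5-fold. In Kupffer cell-like cells Psmd11 had 172 CPM in NEVLPcty, 206 CPM in NEVLP2, 74.0 CPM in CS and 75.7 CPM in naive, 2.78-fold higher in NEVLP2 than in CS (interval 2.6 to 2.98). In monocyte- or macrophage-like cells Psmd11 had 211 CPM in NEVLPcty, 266 CPM in NEVLP2, 84.5 CPM in CS and 83.1 CPM in naive, so CS and naive were alike.

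Psmd3, a lid subunit, averaged 0.54 for NEVLP2 over CS and 0.62 for NEVLP2 over naive, and Psmd1, the large scaffold subunit of the base, 0.66 and 0.77; Psmd1 was chosen after its values were seen. Psmd4, a ubiquitin receptor, averaged -0.24 and -0.05, and Psmd14, the lid enzyme that removes ubiquitin, -0.10 and 0.07, so the particle did not move as a whole. Of its 11 subunits outside the ATPase ring, 2 had a class mean at least 1.5-fold higher in NEVLP2 than in CS and 4 than in naive, and 0 were as much lower, where 16.2% and 20% of all genes were higher and 40.4% and 37.2% lower in the same comparisons. Of the 6 ATPases, which unfold the substrate, 0 passed the fold in a class mean in either comparison. Psmc1, Psmc4 and Psmc6 averaged 0.42, 0.33 and 0.40 for NEVLP2 over CS, and Psmc2, Psmc3 and Psmc5 0.00, 0.11 and 0.20. Between NEVLPcty and NEVLP2 the class means of the 42 measured constitutive genes all stayed within 1.5-fold, where 12.1% of all genes were lower in NEVLPcty and 17.7% higher.

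**Figure D4:**
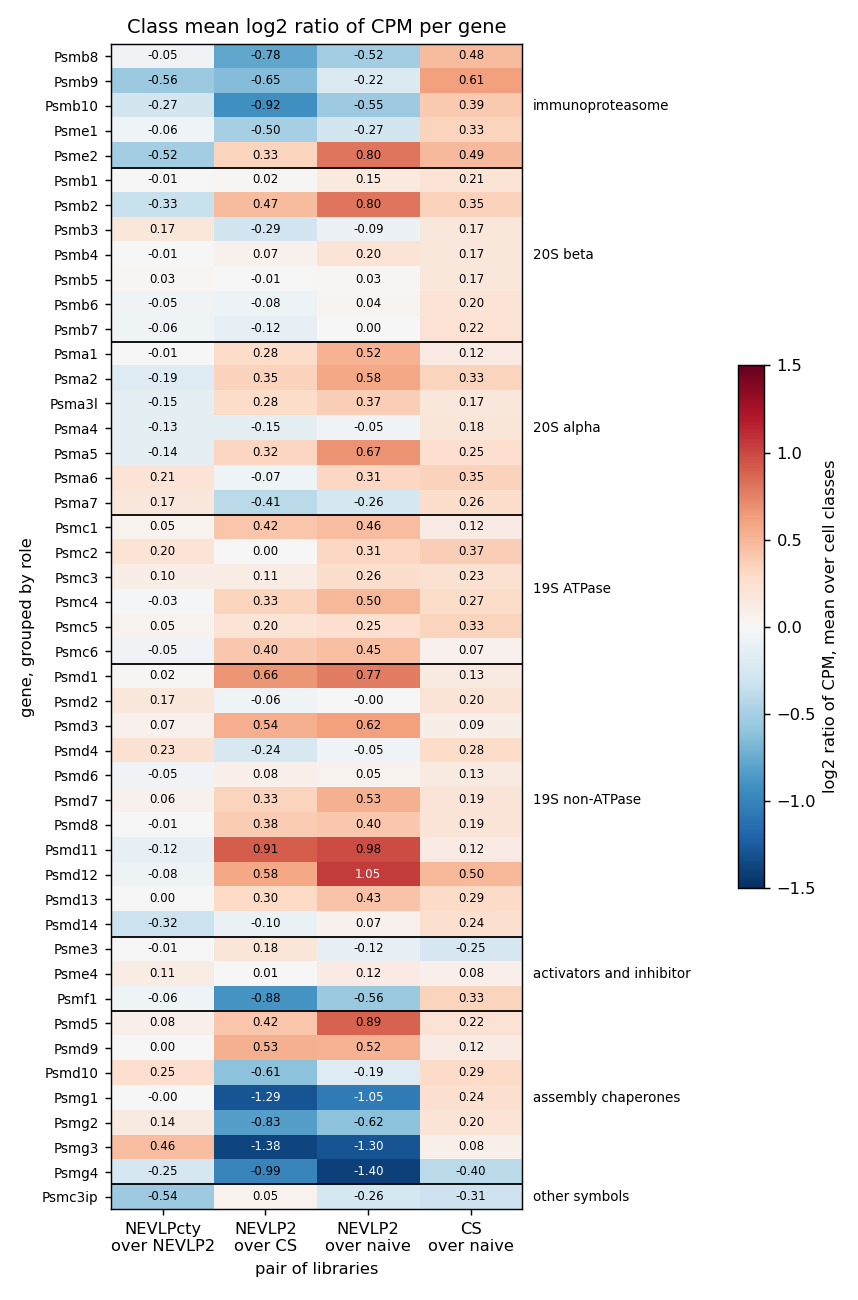
Mean over classes of the log2 ratio of each proteasome gene (one line per gene, by role) in 4 comparisons (columns). Psmg3 is at -1.38 and Psmg1 at -1.29 for NEVLP2 over CS, where Psmd11 is at 0.91, and the column of NEVLPcty over NEVLP2 is pale except for Psmb9 (-0.56), Psme2 (-0.52), Psmc3ip (-0.54) and Psmg3 (0.46).

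The alpha-ring chaperones went against most subunits of the 19S particle. Psmg1 to Psmg4, the chaperones that help build the alpha ring, were lower in NEVLP2 than in CS, and of the 7 chaperones 5 had a class mean at least 1.5-fold lower, where 40.4% of all genes did; the fifth, Psmd10, turned to 0.51 in thinned cells. Psmg3 was at least 1.5-fold lower in 9 of 9 classes, with a mean log2 ratio of -1.38, and in Kupffer cell-like cells it had 10.3 CPM in NEVLPcty, 12.7 CPM in NEVLP2, 34.4 CPM in CS and 25.8 CPM in naive. Psmg4 was lower by that fold in 8 of 9 classes, with a mean of -0.99, and in Kupffer cell-like cells had 38.0 CPM in NEVLPcty, 34.8 CPM in NEVLP2, 91.8 CPM in CS and 96.2 CPM in naive. In Kupffer cell-like cells both perfused libraries were thus below both others for Psmg3 and Psmg4. The perfused and other cells of that class lay mostly in different clusters.

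Psmg1 and Psmg2 were chosen after their values were seen. Psmg1 averaged -1.29 for NEVLP2 over CS and -1.05 for NEVLP2 over naive, and had 25.2 CPM in NEVLPcty, 33.0 CPM in NEVLP2, 54.3 CPM in CS and 42.4 CPM in naive in T cell-like cells. Hepatocyte-like cells were the exception, with 85.4 CPM of Psmg1 in NEVLPcty, 77.6 CPM in NEVLP2, 88.9 CPM in CS and 74.3 CPM in naive, so the libraries hardly differed there. Psmg2 averaged -0.83 for NEVLP2 over CS; over naive its mean of -0.62 turned to 0.14 with called doublets kept and to 0.04 in thinned cells. The chaperones of the 19S base differed from the alpha-ring ones: Psmd5 averaged 0.42 for NEVLP2 over CS and 0.89 for NEVLP2 over naive, Psmd9 averaged 0.53 and 0.52, and Psmd10, with 1136 UMIs in all, averaged -0.61 for NEVLP2 over CS.

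Psmf1, the proteasome inhibitor PI31, averaged -0.88 for NEVLP2 over CS and was at least 1.5-fold lower in 5 of 9 classes, where 38.8% of all gene-in-class values were. In endothelial-like cells Psmf1 had 16.3 CPM in NEVLPcty, 19.9 CPM in NEVLP2, 78.5 CPM in CS and 72.8 CPM in naive, whereas in T cell-like cells it had 62.9 CPM in NEVLPcty, 82.2 CPM in NEVLP2, 73.2 CPM in CS and 61.8 CPM in naive. The first class separated the perfused libraries from the others and the second did not. Psme3, the nuclear activator PA28 gamma, averaged 0.18 for NEVLP2 over CS, and Psme4, the activator PA200, averaged 0.01. Psmc3ip, a recombination factor, had 2009 UMIs in all and averaged -0.54 for NEVLPcty over NEVLP2.

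Genes around the proteasome were read as 5 lists. Of 9 measured interferon regulators of the immunoproteasome, 5 had a class mean at least 1.5-fold lower in NEVLPcty than in NEVLP2 and 0 higher, where 12.1% of all genes were lower and 17.7% higher, with a list median of -0.72 beside 0.10 for all genes. In NEVLP2 against CS 3 were higher, where 16.2% of all genes were, with a median of 0.22 beside -0.34. Socs1, an inhibitor of interferon signalling that is itself induced by it, averaged -2.15 for NEVLPcty over NEVLP2 and 2.18 for NEVLP2 over CS. Irf1, the transcription factor that drives the immunoproteasome genes, was chosen after its values were seen. It had 137 CPM in NEVLPcty, 329 CPM in NEVLP2 and 119 CPM in CS in T cell-like cells. Psme2 stood in that order there, whereas Psmb10 was highest in CS, and a link of Irf1 to the members was not tested.

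Of 9 measured genes of peptide supply to MHC class I, 1 was lower and 1 higher in NEVLPcty than in NEVLP2 by the fold, where 12.1% of all genes were lower and 17.7% higher, with a median of -0.13. Tap1, a peptide transporter subunit and neighbour of Psmb8 and Psmb9, averaged -0.91 and was lower in 10 of 10 classes, and in T cell-like cells had 243 CPM in NEVLPcty, 594 CPM in NEVLP2 and 173 CPM in CS. B2m, the light chain of MHC class I, averaged -0.13. Erap1, which trims peptides, averaged 0.02 for NEVLPcty over NEVLP2 and -0.90 for NEVLP2 over CS. The list median for NEVLP2 over CS was 0.17, with 0 of 8 genes higher and 2 lower by the fold, where 16.2% of all genes were higher and 40.4% lower.

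Of 17 measured partners of the proteasome, 4 were higher and 2 lower in NEVLP2 than in CS, where, here and for the next lists, 16.2% of all genes were higher and 40.4% lower, with a median of 0.44. Zfand2a, an adaptor induced by proteotoxic stress, averaged 2.19. Of 6 genes of the NRF1 axis, which restores proteasome genes when the proteasome is short, 2 were higher and 2 lower, with a median of 0.47: Nfe2l2, which encodes NRF2, averaged 0.87, and Ngly1, which processes NRF1, averaged -1.17. Of 6 genes of ubiquitin supply 0 were higher and 1 lower, Uba6, an activating enzyme, at -0.77, with a median of -0.10. Vcp and Ddi2 stand in both of the first lists. Between NEVLPcty and NEVLP2 the medians of these 3 lists were 0.04, 0.21 and 0.10.

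RNA from other cells was measured in the classes outside the leukocytes. In hepatocyte-like cells the 65 leukocyte markers summed to 1.64% of their leukocyte level in NEVLPcty, 6.11% in NEVLP2, 2.77% in CS and 1.14% in naive, while the immunoproteasome stood at 66.6%, 68.1%, 37.9% and 32.7% of its leukocyte level. In endothelial-like cells the markers stood at 3.98%, 4.88%, 2.17% and 2.86%, and the immunoproteasome at 36.4%, 35.8%, 55.7% and 42.9%. In stellate- or fibroblast-like cells the leukocyte markers stood at 6.75% in NEVLPcty and 19.2% in NEVLP2, and the immunoproteasome at 52.0% and 43.0%. Their own 10 markers summed to 712 CPM in NEVLPcty and 679 CPM in NEVLP2, with 2 and 4 at 0, against hepatocyte markers of 3588 and 8340.0 CPM. The part of such RNA in the immunoproteasome levels was not tested. In 33 erythroid-like cells of naive the markers stood at 0.237% and the immunoproteasome at 0.622%.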

How the data were processed

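The deposited files hold raw UMI counts per gene and cell barcode for 4 libraries of the 10x platform, which the authors made with Cell Ranger, version 2.1.1 per the submitters' processing notes and 6.0.0 per the file headers. No source used here gives the genome build. Kept barcodes had 200 genes and 500 UMIs or more, with a mitochondrial share up to 20%. Doublets were called with Scrublet in scanpy 1.11.5; 0 were called in NEVLPcty, 208 in NEVLP2, 326 in CS and 3 in naive, so calling did not work in NEVLPcty and hardly in naive. Cells were clustered jointly without integration (2000 variable genes without proteasome genes, 30 components, 15 neighbours, Leiden resolution 1), and clusters were named from 18 marker lists; named classes are rebuilt, not the authors'. Counts were summed per class and library to CPM, and ratios were given exact intervals with scipy 1.17.1. Median UMIs per barcode were 5313 in NEVLPcty, 3459 in NEVLP2, 4465 in CS and 3482.5 in naive. The members and lists were chosen with earlier results of these data known. Named genes were the immunoproteasome members, Psmb5, Psmb6 and Psmb7, and, per role and list, the genes with the most UMIs and the highest or lowest class means; others are said to be chosen afterwards. The scripts were tested on simulated counts.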

Additional observations from a re-analysis of the deposited data

Results flagged for a closer look

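Some class sums of the immunoproteasome went one way in one cell class and the other way in another under the same comparison, by at least 1.5-fold; with 1 library a group the difference between the classes was not tested. For NEVLP2 over naive the log2 ratio was 0.76 in T cell-like and 0.86 in hepatocyte-like cells, but -0.65 in monocyte- or macrophage-like and -1.48 in neutrophil-like cells. The medians of all genes there were 0.08, 0.58, -0.58 and -0.63, so the monocyte- or macrophage-like value is near its median, and within cluster 3 the hepatocyte-like ratio was 0.14. For NEVLPcty over naive it was 0.63 in hepatocyte-like cells, but -0.61 in conventional dendritic cell-like, -0.63 in endothelial-like and -0.61 in monocyte- or macrophage-like cells. The medians of all genes were 0.62, -0.34, -0.72 and -0.30, so relative to them the hepatocyte-like value is near 0 and the endothelial-like one turns above 0. Apart from T and neutrophil-like cells, these classes lay mostly in different clusters in the libraries compared. Part of the conventional dendritic cell-like cells shared cluster 20, and part of the hepatocyte-like cells cluster 3.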

How the results depend on the processing

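No paired analysis was possible because each group had 1 library. The values below are, in the order NEVLPcty over NEVLP2, NEVLP2 over CS, NEVLP2 over naive and CS over naive where a comparison is not named, mean log2 ratios of the immunoproteasome (reported as -0.25, -0.42, -0.14 and 0.43) and of the constitutive rest (-0.00, 0.10, 0.27 and 0.21), and counts of member-in-class values past the fold, higher (27, 60, 129 and 35) and lower (36, 84, 79 and 8). Values that moved are given; the cause was not tested unless stated.

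With each library clustered alone, NEVLPcty over NEVLP2 gave -0.16 and -0.10 with 8 higher and 16 lower, the immunoproteasome was -0.52 for NEVLP2 over CS and -0.24 for NEVLP2 over naive, and the mean catalytic share was 61.9% in NEVLPcty, 72.8% in CS and 68.4% in naive, so NEVLPcty then stood above NEVLP2 (59.4%). Thinned to 1000 UMIs a cell, which left out 805 NEVLPcty, 1582 NEVLP2, 1270 CS and 454 naive cells, NEVLPcty over NEVLP2 gave -0.19 and 0.02 with 41 higher and 62 lower, NEVLP2 over naive 0.31 for the rest with 44 lower, CS over naive 0.24 for the rest with 87 higher and 18 lower, and shares were 59.0% in NEVLPcty, 61.7% in NEVLP2 and 71.0% in CS. As a mean over cells, the immunoproteasome was -0.21 for NEVLPcty over NEVLP2 and the rest 0.03, 0.08, 0.20 and 0.16. Relative to the median of all genes the immunoproteasome was -0.35, -0.15, 0.07 and 0.34 and the rest -0.09, 0.38, 0.48 and 0.12. Scaled without mitochondrial and ribosomal genes, the immunoproteasome was -0.47, -0.23 and 0.38 in the last 3 comparisons and the rest 0.02, 0.06, 0.18 and 0.16 in the 4.

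With doublets kept, NEVLP2 over CS gave -0.48 and 0.04, NEVLP2 over naive 0.45 and 0.84 with 50 lower, CS over naive 0.39 and 0.19, and shares were 58.6% in NEVLPcty, 60.5% in NEVLP2, 71.1% in CS and 66.6% in naive; here an erythroid-like class entered NEVLP2 over naive at 5.55 and 5.59, and endothelial-like cells dropped out. With the highest doublet scores removed, the rest was -0.03 for NEVLPcty over NEVLP2, NEVLP2 over naive gave -0.07 and 0.31, CS over naive 0.19 for the rest with 3 lower, and shares were 58.5%, 60.4%, 71.5% and 66.7%. With cells taken by transcripts, NEVLPcty over NEVLP2 gave -0.08 for the rest with 13 higher, the immunoproteasome was -0.06 for NEVLP2 over naive and 0.47 for CS over naive, and shares were 58.8%, 61.4%, 71.5% and 66.8%. At Leiden resolution 2, NEVLP2 over CS gave -0.50 and 0.07, and shares were 58.5% in NEVLPcty, 71.3% in CS and 66.6% in naive. With the 20S core and 19S particle alone, the rest was 0.13 over CS and 0.30 over naive in NEVLP2. At a fold of 2 the counts were 3, 13, 45 and 8 higher and 3, 45, 45 and 0 lower. With at least 50 UMIs, 4 values were lower in CS than in naive.

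Chosen after seeing the data were 4 alternatives. With at least 5 expected UMIs, 5 values were lower in CS than in naive. Within single clusters, NEVLPcty over NEVLP2 gave -0.22 and 0.03 with 74 higher and 64 lower, NEVLP2 over CS -0.23 and 0.13 with 45 lower, and NEVLP2 over naive -0.10 and 0.21 with 46 lower. In leukocyte-like classes alone, the immunoproteasome was -0.32, -0.40, -0.04 and 0.36 and the rest -0.12, 0.15, 0.31 and 0.16, with 7 higher in the first, 83 higher and 44 lower in the third and 8 higher and 4 lower in the last, and shares were 60.5%, 62.1%, 73.9% and 70.1%. Without endothelial-like cells, the rest was -0.04, 0.17 and 0.32 in the first 3, the immunoproteasome -0.32, -0.10 and 0.39 in the last 3, and shares were 57.9%, 60.3%, 70.9% and 66.7%.

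Of 24 member class means of at least 1.5-fold, 22 kept their sign in every alternative run; Psmd10 for NEVLP2 over CS turned to 0.51 thinned, and Psmg2 for NEVLP2 over naive to 0.14 with doublets kept and 0.04 thinned. The 12 class sums of that size in these 4 comparisons kept theirs (NEVLPcty over naive was not run), though hepatocyte-like cells ranged from 0.14 to 0.92 for NEVLP2 over naive and Kupffer cell-like cells from -0.86 to -0.21 for NEVLP2 over CS. Depth limits the genes of few UMIs, such as Psmg3 and Psmd10, and the 34 endothelial-like cells of naive.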
